A study of Mus musculus with 23 samples.

Results

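The genes described here are 41 receptors for neuromodulators in the mouse hippocampus: 5 muscarinic and 4 nicotinic acetylcholine receptor genes, 9 serotonin receptors, 6 adrenergic receptors, 4 opioid receptors, 4 somatostatin receptors and 3 receptors for neuropeptide Y (NPY). The dopamine receptor Drd5, the cannabinoid receptor Cnr1, the adenosine receptor Adora1 and the receptors Crhr1, Galr1 and Hcrtr2, for corticotropin-releasing hormone, galanin and orexin, complete the list. They were chosen by name, and each matched 1 row of a table of 45706 genes. RNA had been sequenced from the hippocampus of female mice, 12 wild-type libraries (Ins2+/+, WT) and 11 libraries from mice without Ins2, which encodes an insulin (Ins2-/-, KO). The labels give genotype, sex and tissue, and no age, strain, treatment or batch. They do not say how the Ins2 allele was made, nor name Ins1, the other mouse insulin gene, or state that each library came from its own mouse, so p-values measure the spread between libraries.

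Neuromodulators reach hippocampal neurons from distant nuclei or from local interneurons and mostly act through G protein-coupled receptors, which change excitability and transmitter release rather than carry fast signals. Gq-coupled receptors such as Chrm1 and Htr2c raise calcium through phospholipase C, Gi-coupled receptors such as Adora1, Cnr1 and Htr1a lower cyclic AMP and open potassium channels, and Gs-coupled receptors such as Drd5 and Htr7 raise cyclic AMP. The nicotinic subunits and Htr3a instead form ion channels. Cholinergic, noradrenergic and dopaminergic input is known for its part in hippocampal plasticity and memory, which the series title names as impaired in female mice that lack brain insulin production.

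Library totals ran from 13792274 to 22953261 counts. Ins2 had 0 counts in all 11 KO libraries (by counting error alone, a level of at most 0.0156 CPM for 3 counts over the group) and 26 in the WT libraries, 18 of them in WT library 17. Some libraries stood apart by RNA of other tissue. KO library 8 went against its tissue label: a list of 14 hypothalamic genes summed to 1563 CPM there (counts scaled to equal library size) and to 5.31 to 23.8 CPM in the other 22 libraries, and 9 of 9 dentate gyrus genes and 6 of 8 CA1 genes were below the range of the others. In the other 22 libraries these dentate gyrus and CA1 lists summed to 406 to 829 and 394 to 754 CPM, so the hippocampal label held there. Among these, WT library 15 stood apart by the mean log2 CPM of 11 striatal genes. It was 3.93 there, against at most 2.58 in the rest of the 22. By their summed CPM it did not stand apart, with 259 CPM against 265 CPM in WT library 17. In the latter Ppp1r1b alone had 148 CPM. A list of 13 choroid plexus genes summed to 4804 to 30221 CPM in 5 libraries (WT 14 and 17, KO 2, 6 and 12), and to 169 to 389 CPM in the remaining 17 libraries and 251 CPM in KO library 8. Results are given with and without KO library 8, and for some genes also without the choroid plexus rich libraries. In bulk tissue, fewer cells of a type and less RNA per cell cannot be told apart.

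To compare receptors with each other, CPM was divided by the kilobases of annotated exon, and the median over the 22 libraries other than KO library 8 was taken. The purine receptor Adora1, which damps glutamate release, led at 51.2 CPM per kilobase (39.6 to 58.6 over these libraries). Chrm1, the main excitatory muscarinic receptor of pyramidal cells, followed at 35.1 (25.8 to 44.8), and Cnr1, the presynaptic cannabinoid receptor of interneurons, at 33.1 CPM per kilobase (21.7 to 40.6). The ranges of these 3 genes overlapped. In the 17 libraries low in choroid plexus and hypothalamic RNA Cnr1, at 35.8, was just above Chrm1, at 35.6. Adra1d at 23.5, Npy2r at 22.9, Oprl1 at 11 and Sstr4 at 10.2 CPM per kilobase were the remaining members above 10. At the other end, 7 members were below 1 CPM per kilobase: Chrm5 and Adra1b, both at 0.658, Adra1a at 0.555, Hcrtr2 at 0.386, Oprk1 at 0.205, Galr1 at 0.107 and Oprm1 at 0.0775.

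**Figure D1:**
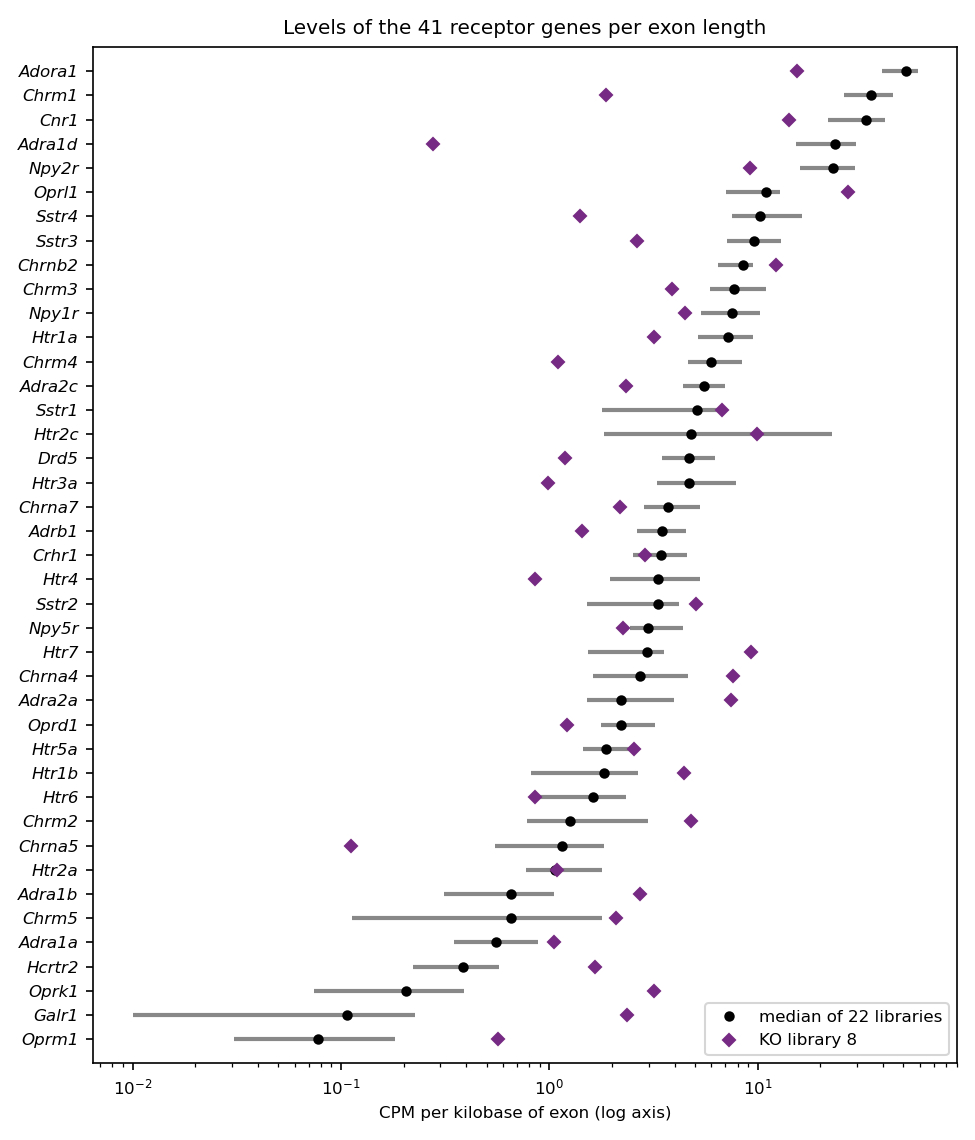
Level of each of the 41 receptor genes in CPM per kilobase of exon (log axis). Black points are medians of the 22 libraries other than KO library 8, grey bars their range, and purple diamonds KO library 8; the left end of the Galr1 bar stands for a library with 0 counts. Adora1, Chrm1 and Cnr1 lie at the top, and Oprm1 at 0.0775 at the bottom.

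Subtypes within a family differed widely in level. Among muscarinic receptors Chrm1 was followed by Chrm3 (7.68 CPM per kilobase), which also couples to Gq, by the Gi-coupled Chrm4 (5.97) and Chrm2 (1.26), and by Chrm5. Chrnb2, the common beta subunit of brain nicotinic receptors, reached 8.54 CPM per kilobase, against 3.72 for Chrna7, 2.73 for Chrna4, the usual partner of Chrnb2, and 1.15 for the accessory subunit Chrna5. The serotonin receptor with the highest level was Htr1a, an inhibitory receptor of pyramidal cells, at 7.18 CPM per kilobase. Htr2c (4.81) and the channel Htr3a (4.67) followed. Their order turned in the 17 libraries low in choroid plexus and hypothalamic RNA (4.47 and 4.68). Then came Htr4 (3.34) and Htr7 (2.95), and Htr2a was lowest at 1.07. Sstr4 and Sstr3, the latter a receptor of neuronal cilia, were above Sstr1 (5.09) and Sstr2 (3.33). Among NPY receptors the presynaptic Npy2r was above Npy1r (7.52) and Npy5r (2.99). Drd5 stood at 4.69 and Crhr1 at 3.45 CPM per kilobase.

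Exons of 8 members overlap another gene, each on the opposite strand, and the use of strand in counting is not stated. The overlap covered 48.6% of the exon bases of Drd5, 20.1% of Adora1 (shared with Mybph), 18% of Htr1b, 16.3% of Chrnb2 (shared with Adar) and at most 7.7% of Adra1d, Chrm1, Chrm2 and Oprm1. How many of their counts come from the other gene was not tested, so the levels of these members are uncertain.

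The main comparison asked which receptors differ between KO and WT. None did by the test over all genes: of 40 tested members, 0 had an edgeR adjusted p below 0.05 (background 0.0126%, 2 of 15828 genes), and the smallest adjusted p of a member was 0.781. DESeq2 (background 0.0253%) and limma voom with quality weights (background 0.0316%) also called 0 at an adjusted p below 0.05. At an unadjusted p below 0.05 there were 7 members, 17.5% of those tested, against 5.74% of all genes. Of these, 6 were higher in KO (background 3.41%), namely Chrna4, Htr5a, Htr7, Adra1a, Oprm1 and Oprk1, and Chrm3 was lower (background 2.34%). The median log2 fold change of the members was -0.028, against 0.0031 for all genes. Galr1 was below the filter on low counts.

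Without KO library 8 the picture thinned. Of the 40 members, Chrna4 and Htr5a had an unadjusted p below 0.05, 5.0% against a background of 4.11%, and the edgeR count of calls stayed at 0. The log2 fold change came closer to 0 in 36 of 40 members and changed sign in 9. A fold change beyond 0.3 in either direction on the log2 scale was seen in 10 members with this library and in 4 without it (Chrna4, Htr2c, Oprm1 and Oprk1). The standard errors without it ran from 0.0524 for Chrnb2 to 0.401 for Htr2c, with a median of 0.112. With the choroid plexus genes' mean log2 CPM as a covariate, 11 members were below 0.05 over all libraries (background 7.03%) and 3 without KO library 8 (background 5.36%). With the same mean for thalamus and habenula genes, a covariate chosen after the data were seen, there were 3 (background 3.89%) and 2 (background 4.34%). The thalamus and habenula mean was 3.60 in KO library 8 against 2.03 to 2.64 in the others. The WT and KO ranges overlapped for each of the 40 members (background of genes without overlap 0.0126%).

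**Figure D2:**
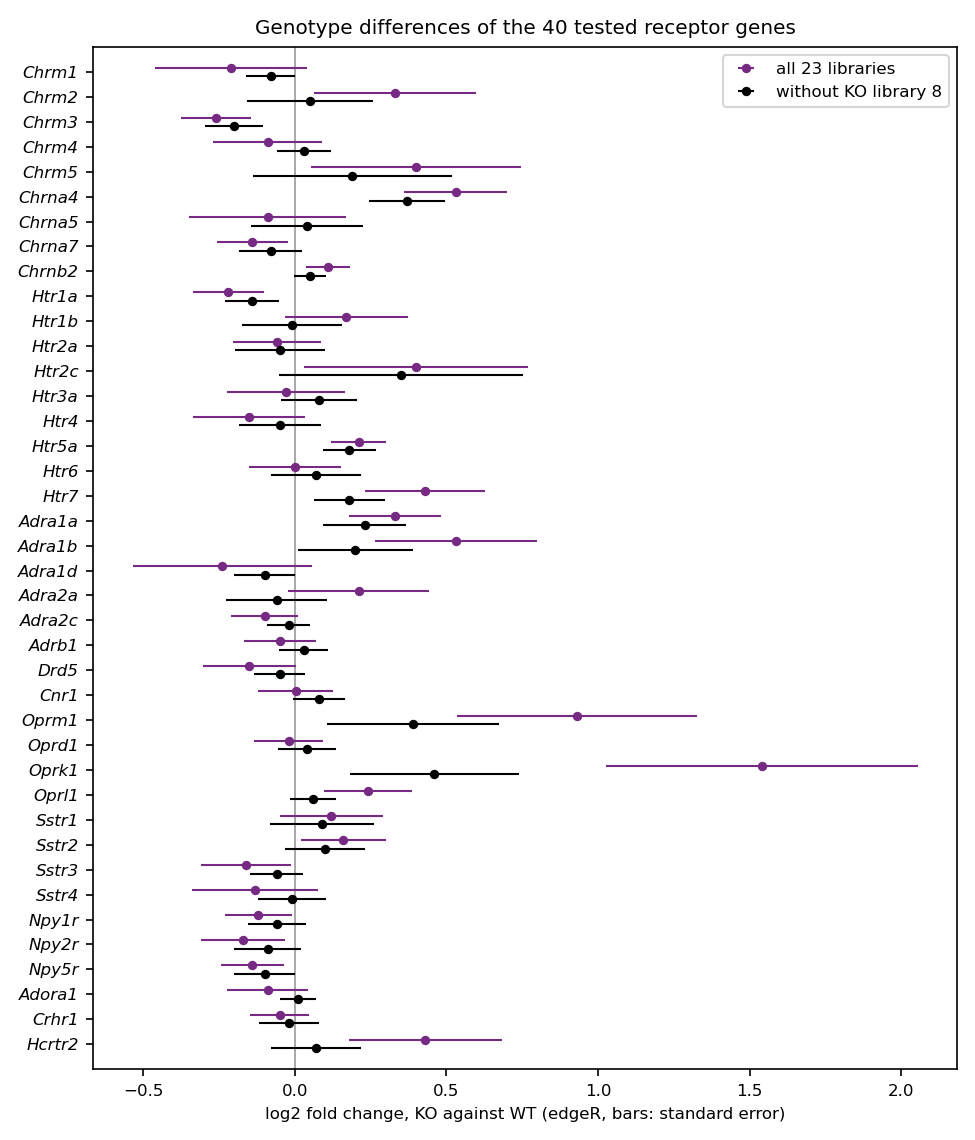
Log2 fold change of KO against WT for the 40 tested members from edgeR, with bars of 1 standard error, over all 23 libraries (purple) and without KO library 8 (black). Oprk1 moved from 1.54 to 0.46 and Oprm1 from 0.93 to 0.39, while Chrna4 moved from 0.53 to 0.37.

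Chrna4 encodes the alpha subunit of the high-affinity nicotinic receptor. It ran from 8.12 to 17.3 CPM in WT (median 12.6) and from 11.3 to 23.3 CPM in the 10 other KO libraries (median 14.4), with 38.2 CPM in KO library 8. Besides that library, KO libraries 16 (23.3 CPM), 4 (23.2), 2 (18.8) and 18 (18.5) were above every WT library, and the other 6 lay within the WT range. The log2 fold change was 0.53 (SE 0.169, edgeR unadjusted p = 0.00428, adjusted 0.781) and 0.37 without KO library 8 (SE 0.126, unadjusted p = 0.00757, adjusted 0.967). It had an edgeR unadjusted p below 0.05 in each of the 23 fits that left out 1 library. Oprk1 and Oprm1 had this in 22, all but the fit without KO library 8. Htr5a had it in 20, Chrm3 in 19, Htr7 in 17 and Adra1a in 10. These genes were picked by the p-value over all libraries, and the fits share most libraries, so the tallies are not independent of it. Neocortex genes went with it in some libraries. The 9 genes of that list had their highest mean log2 CPM in KO libraries 4 and 16, at 4.38 and 4.28. Below their median over the 22 libraries were Lamp5, Tbr1 and Vipr1 in KO library 4 and Rasgrf2 and Vipr1 in KO library 16. Foxp2, at 6.55 CPM in KO library 4, ran from 0.272 to 9.85 CPM over the 22. The list mean ran from 3.67 to 4.14 in WT and from 3.75 to 4.38 in KO without library 8. In that comparison 3 of 9 genes were higher in KO at an edgeR unadjusted p below 0.05 (background 2.18%). KO libraries 13 and 21 also had means above every WT library, 4.24 and 4.19, with Chrna4 within the WT range, and KO libraries 2 and 18 had Chrna4 above it with means of 4.12 and 4.04. In KO library 8, 4 of the 9 were above and 4 below the range of the others. Its mean was the lowest, 3.32. Its summed level was the highest, 377 CPM against 226 to 303 CPM, and 258 CPM of that sum was Rasgrf2. The thalamus and habenula mean of KO library 4 was 2.60, within the WT range of 2.03 to 2.64. Only WT library 15, at 2.64, was above it among the 22 libraries, and the next WT value was 2.49. Tcf7l2 of that list was 20.9 CPM in KO library 4 against a median of 5.79 CPM over the 22 libraries. Tcf7l2, Rora (59.6 CPM) and Rgs16 (9.87 CPM) had their highest value of the 22 there. Prkcd, Calb2, Gpr151 and Nwd2 of the list were below their median over the 22. With the neocortex mean as a covariate and KO library 8 left out, a fit chosen after the data were seen, the log2 fold change of Chrna4 was 0.22 (SE 0.113, edgeR unadjusted p = 0.0596, adjusted 0.999), and 0 of 40 members were below 0.05 (background 3.01%). With KO library 8 left out and the thalamus and habenula mean as the covariate Chrna4 was at 0.37 (edgeR unadjusted p = 0.00879), and with the choroid plexus mean at 0.38 (unadjusted p = 0.00666).

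Htr5a, an inhibitory serotonin receptor, had values of 7.82 to 12.3 CPM in WT (median 9.87) and 8.50 to 13.3 CPM in KO without library 8 (median 11.4). KO libraries 4, 16 and 22, at 13.1 to 13.3 CPM, and KO library 8, at 13.7 CPM, were above every WT library, and the other KO libraries lay within the WT range. The log2 fold change was 0.21 (SE 0.0907, edgeR unadjusted p = 0.027, adjusted 0.781), 0.18 without KO library 8 (SE 0.0874, unadjusted p = 0.0456, adjusted 0.967) and 0.14 with the neocortex covariate as well (SE 0.0925, unadjusted p = 0.133, adjusted 0.999).

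The promoters of Chrna4 and Htr5a, the 2 members with an unadjusted p below 0.05 in both comparisons, and of Htr2c, which had the largest coefficient of variation over the 22 libraries other than KO library 8, are shown as RefSeq gives them on GRCm38.p6, from 250 bases before to 50 after the start. Capitals mark matches on either strand to 4 motifs. The GC box was searched as GGGCGG and the TATA box, which places the start site in many regulated genes, as TATAAA. The cyclic AMP response element was searched as TGACGTCA, and the CCAAT box by the letters of its name. The Chrna4 window, chr2:181039128-181039427 on the minus strand, holds 3 GC boxes and 74.3% G or C. The Htr5a window, chr5:27841697-27841996 on the plus strand, holds no match to the 4 motifs. The Htr2c window, chrX:146962263-146962562 on the plus strand, holds 1 CCAAT box, on the opposite strand. Of 33 members with a promoter in the table, 19 held a GC box, 12 a CCAAT box, 2 a TATA box and 1 a cyclic AMP response element, in at least 1 window. Over all 32851 promoters of this length the shares were 35.7%, 37.4%, 13.6% and 1.79%, and members with several windows had more chances of a match.
Chrna4: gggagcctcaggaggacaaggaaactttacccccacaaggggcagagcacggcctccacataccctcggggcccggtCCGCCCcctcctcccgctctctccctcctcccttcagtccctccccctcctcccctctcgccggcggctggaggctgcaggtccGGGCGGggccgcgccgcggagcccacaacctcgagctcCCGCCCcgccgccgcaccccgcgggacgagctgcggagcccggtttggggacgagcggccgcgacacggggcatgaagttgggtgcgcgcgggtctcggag
Htr5a: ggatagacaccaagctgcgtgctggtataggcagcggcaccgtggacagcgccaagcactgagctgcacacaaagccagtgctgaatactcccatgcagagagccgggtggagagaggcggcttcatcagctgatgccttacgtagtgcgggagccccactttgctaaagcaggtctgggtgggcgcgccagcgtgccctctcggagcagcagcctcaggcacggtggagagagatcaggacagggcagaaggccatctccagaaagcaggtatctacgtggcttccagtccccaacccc
Htr2c: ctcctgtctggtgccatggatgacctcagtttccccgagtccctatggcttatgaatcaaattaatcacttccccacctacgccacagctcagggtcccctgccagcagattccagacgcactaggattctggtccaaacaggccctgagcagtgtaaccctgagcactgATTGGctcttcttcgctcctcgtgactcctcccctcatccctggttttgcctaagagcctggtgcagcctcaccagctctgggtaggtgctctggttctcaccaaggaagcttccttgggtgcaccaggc

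Among acetylcholine receptors beside Chrna4, Chrm3, a Gq-coupled receptor, had an unadjusted p below 0.05 over all libraries. It ran from 39.8 to 68.9 CPM in WT (median 53.4) and from 36.9 to 60.1 CPM in KO without library 8 (median 43.5), with 24.3 CPM in that library. WT libraries 5 and 20, at 68.9 and 62.7 CPM, were above every KO library, and otherwise the groups overlapped broadly. Between genotypes the log2 fold change was -0.26 (SE 0.114, edgeR unadjusted p = 0.0298, adjusted 0.781) and -0.20 without KO library 8 (SE 0.0964, unadjusted p = 0.0513, adjusted 0.967). With only the choroid plexus rich libraries left out it was -0.27 (edgeR unadjusted p = 0.0698, adjusted 0.551). Dentate gyrus genes moved the same way: 3 of 9 were lower in KO at an unadjusted p below 0.05 over all libraries (background 2.34%) and 5 of 9 without KO library 8 (background 1.93%, median log2 fold changes -0.33 and -0.23). They summed to 492 to 829 CPM in WT and 406 to 785 CPM in KO without library 8, and their part in the Chrm3 difference was not tested. Chrm1 ran from 168 to 291 CPM in WT (median 242) and from 192 to 283 CPM in KO without library 8 (median 220). With that library, at 12.1 CPM, the log2 fold change was -0.21 (SE 0.251), and without it -0.08 (SE 0.0798). Chrm2, the autoreceptor of cholinergic fibres, was highest in KO library 8 at 28.9 CPM, then in WT library 15 at 18 and KO library 4 at 16.6 CPM, and 4.75 to 10.7 CPM elsewhere. The KO against WT log2 fold change went from 0.33 (SE 0.267) to 0.05 (SE 0.209) without KO library 8. Chrm4, Chrm5, Chrna5, Chrna7 and Chrnb2 had log2 fold changes between -0.08 and 0.19 without that library, each smaller than its SE. Chrm4 ran from 6.70 to 10.7 CPM in WT (median 8.87) and from 7.07 to 12 CPM in KO without library 8 (median 8.45), with 1.58 CPM in that library. Chrna5 ran from 1.84 to 4.55 CPM in WT (median 3.59), from 1.72 to 5.73 CPM in the 10 other KO libraries (median 3.40) and stood at 0.351 CPM, 6 counts, in KO library 8. Chrnb2 was the steadiest receptor, at 54.2 to 75.9 CPM in WT (median 71.0) and 63.9 to 79.6 CPM in KO without library 8 (median 72.3).

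For the serotonin receptors, 4 of 9 log2 fold changes were above 0 and 5 below with all libraries. Htr7, a Gs-coupled receptor, ran from 5.21 to 11.3 CPM in WT (median 8.88) and from 7.36 to 12 CPM in KO without library 8 (median 10.2). That library stood alone at 31.4 CPM. The log2 fold change was 0.43 (SE 0.198, edgeR unadjusted p = 0.0384, adjusted 0.781) with it and 0.18 (SE 0.117, unadjusted p = 0.141) without. With the choroid plexus mean as a covariate and that library left out it was 0.22 (edgeR unadjusted p = 0.0341, adjusted 0.87). Htr1a, the most abundant of the family per kilobase of exon, ran from 26.2 to 42.6 CPM in WT (median 33.5). In KO without library 8 it ran from 23.3 to 41.6 CPM (median 30.5). Its log2 fold change of -0.22 (SE 0.117, edgeR unadjusted p = 0.0741) became -0.14 (SE 0.0892). The remaining members Htr1b, Htr2a, Htr3a, Htr4 and Htr6 lay between -0.05 and 0.08 without KO library 8, each smaller than its SE, and Htr1b was 20.9 CPM in KO library 8 against 3.86 to 12.5 CPM in the others. Htr3a ran from 6.82 to 16.3 CPM in WT (median 9.37) and from 9.08 to 12.8 CPM in KO without library 8 (median 10.3), with 2.05 CPM in that library. Htr4, a Gs-coupled receptor, ran from 11 to 21.3 CPM in WT (median 17.5) and from 9.58 to 26.1 CPM in KO without library 8 (median 15.1), with 4.21 CPM there.

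Htr2c, a Gq-coupled receptor that choroid plexus epithelium is known to make in quantity, followed the choroid plexus genes. It reached 212 CPM in WT library 17, 170 in KO library 12 and 111 in KO library 6, the 3 libraries with the largest choroid plexus sums (30221, 21719 and 13403 CPM). WT library 14 and KO library 2, with sums of 4804 and 4909 CPM, held 68.3 and 52.1 CPM of Htr2c. In the 17 libraries low in choroid plexus and hypothalamic RNA it ran from 17 to 53.5 CPM in 10 WT libraries (median 35.2). In the 7 KO libraries among them it ran from 39.3 to 63.2 CPM (median 45.8). WT libraries 3, 5, 10, 11, 19 and 20, at 17 to 36.0 CPM, were below every KO library, and the other WT libraries lay within the KO range. KO library 8 had 92.2 CPM of Htr2c. Choroid plexus markers below the range of the 17 libraries there were Ttr, at 0.409 against 4.48 to 55.9 CPM, Kl and Sostdc1. Kl was 9.53 against 17.1 to 29.9 CPM, and Sostdc1 1.17 against 1.9 to 3.75 CPM. Prlr at 41.5 CPM and Clic6 at 25.2 CPM were above the 12.7 and 16.1 CPM they reached in the 17.

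The genotype difference of Htr2c depended on how these libraries were treated. Over all 23 the log2 fold change was 0.40 (SE 0.37, edgeR unadjusted p = 0.289, adjusted 0.808). With the choroid plexus mean as a covariate it was 0.46 (SE 0.2, unadjusted p = 0.0301, adjusted 0.689), and without KO library 8 as well it was 0.32 (SE 0.185, unadjusted p = 0.0985, adjusted 0.870). In the 17 libraries it was 0.45 (SE 0.201, edgeR unadjusted p = 0.0383, adjusted 0.614), where 5 of 40 members were below 0.05 (12.5%, background 8.05%), all higher in KO: Chrna4, Htr2c, Htr5a, Adra1a and Oprk1. No other member had a value in a choroid plexus rich library more than 2-fold outside the range of the 17.

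**Figure D3:**
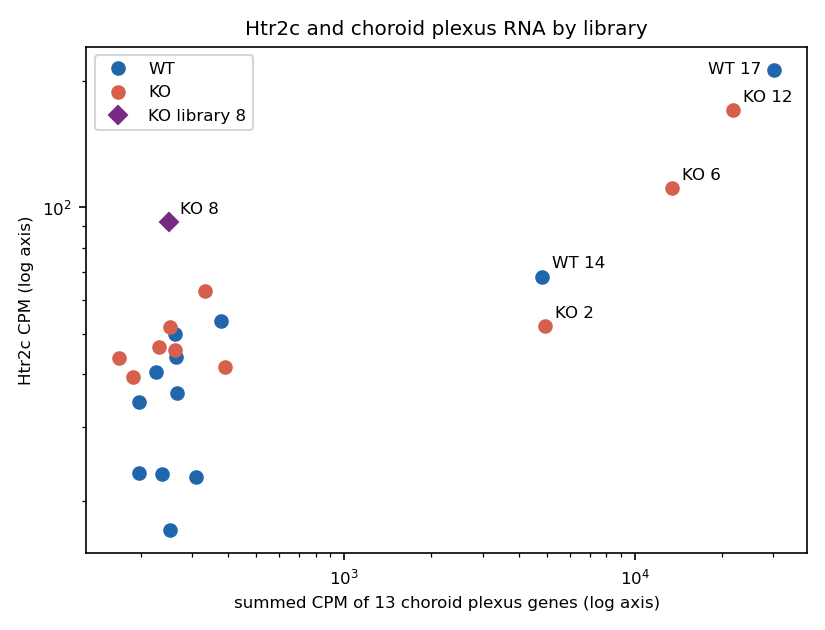
Htr2c in each of the 23 libraries (CPM, log axis) against the summed CPM of 13 choroid plexus genes (log axis), WT blue and KO red. The 5 labelled libraries at the right hold at least 4804 CPM of choroid plexus genes, and KO library 8 (diamond) has 92.2 CPM of Htr2c at a sum of 251 CPM.

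None of the 6 adrenergic receptors was called. Adra1a, a Gq-coupled alpha-1 receptor, ran from 3.04 to 6.53 CPM in WT (median 3.99) and from 3.86 to 7.69 CPM in KO without library 8 (median 5.32), with 9.18 CPM in that library. Between genotypes the log2 fold change was 0.33 (SE 0.151, edgeR unadjusted p = 0.0415, adjusted 0.781), 0.23 without KO library 8 (SE 0.136, unadjusted p = 0.099) and 0.10 with the neocortex covariate and that library left out (SE 0.128, unadjusted p = 0.432). Adra1b was 9.18 CPM in KO library 8 as well, against 1.05 to 3.55 CPM in the others. Its log2 fold change went from 0.53 (SE 0.267, edgeR unadjusted p = 0.059) to 0.20 (SE 0.189) without that library. With only the choroid plexus rich libraries left out its edgeR unadjusted p was below 0.05. Adra1d, the most abundant of the family, had 29.1 to 56.3 CPM in WT (median 45.0), 32.1 to 55.2 CPM in KO without library 8 (median 42.4) and 0.526 CPM, 9 counts, in KO library 8. The KO against WT log2 fold change without that library was -0.10 (SE 0.102). The release-limiting alpha-2 receptors Adra2a (-0.06, SE 0.167) and Adra2c (-0.02, SE 0.0713) and the Gs-coupled Adrb1 (0.03, SE 0.0809) had log2 fold changes smaller than their SE without KO library 8.

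Oprk1 and Oprm1 had the largest log2 fold changes of the members over all libraries, and both values were much smaller without KO library 8. Oprk1, the dynorphin receptor, ran from 0.682 to 3.39 CPM in WT (median 1.36) and from 0.792 to 3.55 CPM in the 10 other KO libraries (median 2.06), against 29.1 CPM in KO library 8. Apart from that library the groups overlapped almost throughout. Its log2 fold change was 1.54 (SE 0.514, edgeR unadjusted p = 0.0063, adjusted 0.781) with it and 0.46 (SE 0.278, unadjusted p = 0.111) without. With the choroid plexus rich libraries left out as well it was 0.62 (SE 0.26, edgeR unadjusted p = 0.0271, adjusted 0.613). DESeq2 gave 0.44 over all libraries (SE 0.28, unadjusted p = 0.116, adjusted 0.801). Oprm1, the mu receptor targeted by morphine, had 4 to 78 counts per library, 0.246 to 1.45 CPM in WT (median 0.498), 0.305 to 1.29 CPM in KO without library 8 (median 0.694) and 4.56 CPM in KO library 8. The log2 fold change between genotypes was 0.93 (SE 0.395, edgeR unadjusted p = 0.0271, adjusted 0.781) with that library and 0.39 (SE 0.284, unadjusted p = 0.186) without. Oprl1, the nociceptin receptor and the most abundant of the family, ran from 26.5 to 48.0 CPM in WT (median 41.2) and from 37.1 to 47.6 CPM in KO without library 8 (median 41.1), with 102 CPM there. Without it the log2 fold change was 0.06 (SE 0.0763), and that of the delta receptor Oprd1 was 0.04 (SE 0.0957).

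**Figure D4:**
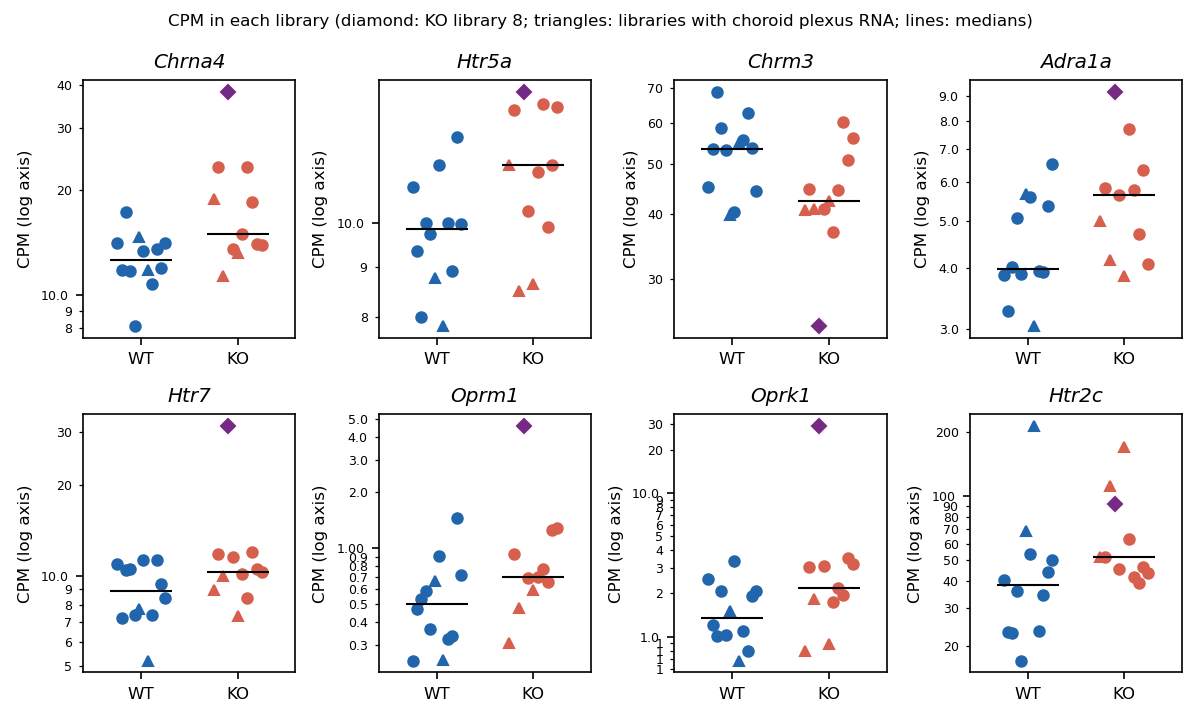
CPM of 8 receptors in each library (log axis, a panel per gene), WT blue and KO red, with medians over all libraries of a genotype as lines, KO library 8 as a diamond and the 5 choroid plexus rich libraries as triangles. KO library 8 is the highest value for Chrna4, Htr5a, Adra1a, Htr7, Oprm1 and Oprk1 and the lowest for Chrm3, at 24.3 CPM.

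Peptide, cannabinoid and adenosine receptors differed little between genotypes once KO library 8 was set aside. Sstr4 ran from 10.8 to 23.4 CPM in WT (median 14.7) and from 11.7 to 22.3 CPM in KO without library 8 (median 14.2), a log2 fold change of -0.01 (SE 0.113). Sstr1, Sstr2 and Sstr3 lay between -0.06 and 0.10. The NPY receptors Npy1r, Npy2r and Npy5r had values below 0, with log2 fold changes of -0.06 (SE 0.0955), -0.09 (SE 0.111) and -0.10 (SE 0.102) without that library, each within its SE. Npy2r ran from 54.1 to 97.2 CPM in WT (median 79.7) and from 55.6 to 98.7 CPM in KO without library 8 (median 65.4). Adora1 had 229 to 339 CPM in WT (median 302) and 273 to 333 CPM in KO without library 8 (median 293), and Cnr1 had 140 to 256 CPM (median 199) and 179 to 262 CPM (median 222). Their log2 fold changes were 0.01 (SE 0.0604) and 0.08 (SE 0.0867). Drd5 (-0.05, SE 0.0836), Crhr1 (-0.02, SE 0.099) and Hcrtr2 (0.07, SE 0.149) were likewise within 1 SE of 0. Sstr3 ran from 30.6 to 55.9 CPM in WT (median 41.4) and from 31.1 to 44.6 CPM in KO without library 8 (median 41), with 11.3 CPM in that library. Drd5, the Gs-coupled dopamine receptor, ran from 12.3 to 19.6 CPM in WT (median 15.1) and from 11 to 17.7 CPM in KO without library 8 (median 14.8), with 3.74 CPM there. Hcrtr2 ran from 1.36 to 3.52 CPM in WT (median 2.06) and from 1.96 to 3.19 CPM in KO without library 8 (median 2.44). In Crhr1, the stress peptide receptor, 7.15 to 10.8 CPM in WT (median 8.50) stood against 6.17 to 11.2 CPM in KO (median 8.40), and the WT range lay inside the KO range. Galr1, untested, ran from 0.0648 to 0.678 CPM in WT (median 0.319) and from 0 to 0.655 CPM in the 10 other KO libraries (median 0.315).

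KO library 8 carried a receptor profile of its own, given as a description of 1 library. Of the 40 tested members, 15 were above the range of the other 22 libraries (37.5%, against 19.5% of all tested genes) and 21 were below it (52.5%, against 26.2%). More than 2-fold above that range were 6 tested members (15.0%, against 2.43%), Htr7, Adra1b, Oprm1, Oprk1, Oprl1 and Hcrtr2, and also Galr1. More than 2-fold below were 10 (25%, against 4.77%): Chrm1, Chrm4, Chrna5, Htr3a, Htr4, Adra1d, Drd5, Sstr3, Sstr4 and Adora1. Within the range lay Htr2a, Htr2c, Sstr1 and Crhr1.

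The largest departures upward were the galanin receptor Galr1, at 7.07 CPM (121 counts) against 0 to 0.678 CPM in the other libraries, a ratio of 22.2 to their median, and Oprk1 at a ratio of 15.5. Oprm1 (7.32), the orexin receptor Hcrtr2 (4.30) and Adra1b (4.12) followed. Downward, the median of the others was 84.9 times the KO library 8 value for Adra1d, 18.8 times for Chrm1, 10.2 times for Chrna5 and 7.33 times for Sstr4. Some ligand precursors were outside the range of the others in the same library: the orexin precursor Hcrt had 103 CPM against at most 0.0718 elsewhere, and the dynorphin precursor Pdyn 59.3 CPM against 11.9 to 25.4, while Npy, at 10.3 against 19.7 to 37.1 CPM, and Cort, at 0.468 against 1.02 to 4.15 CPM, were below it. The somatostatin precursor Sst, at 108 CPM, lay within it. Most families held members on both sides, with the 4 opioid genes split into Oprm1, Oprk1 and Oprl1 above and Oprd1 below, while the 3 NPY receptors were all below.

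**Figure D5:**
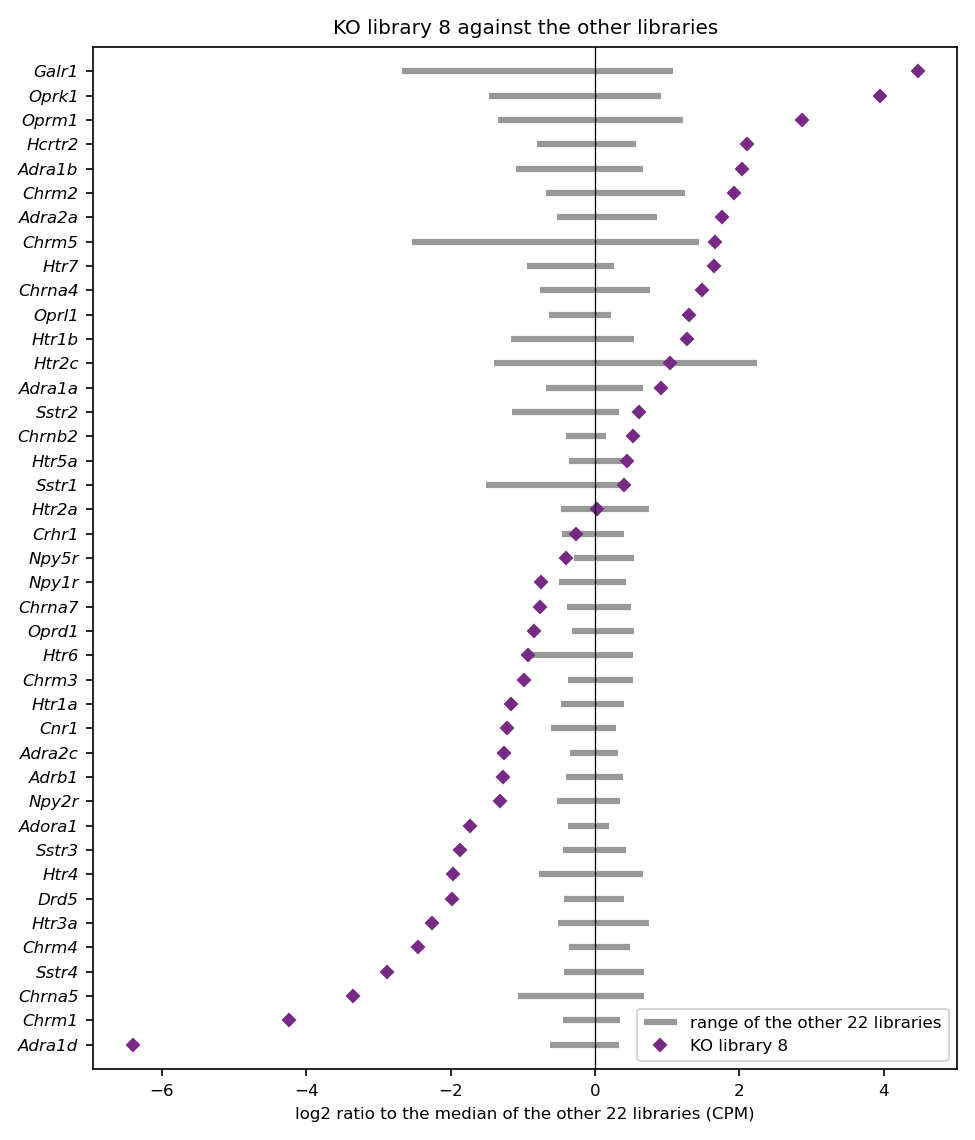
Log2 ratio of each receptor gene in KO library 8 (diamonds) to the median of the other 22 libraries, with grey bars for the range of those libraries; the left end of the Galr1 bar stands for a library with 0 counts. Galr1 and Oprk1 lie farthest above their bars, and Adra1d and Chrm1 farthest below.

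The biological coefficient of variation from edgeR, fitted over all 23 libraries with KO library 8, had a median of 25.3% over the 40 tested members and 14.6% over all tested genes. Over the 22 libraries without it, the coefficient of variation of CPM had medians of 18.9% and 12.7%, and neither comparison matched genes by level. In those libraries the coefficient of variation had a median of 19.5% over the 41 members, from 8.48% for Chrnb2 and 9.43% for Adora1 to 81.0% for Htr2c. Htr2c was 31.4% in the 17 libraries low in choroid plexus and hypothalamic RNA. Galr1 (59.2%), Chrm5 (54.8%), Oprm1 (51.4%) and Oprk1 (48.6%) varied most after Htr2c, and for Galr1, Chrm5 and Oprm1 the lowest library held 4 counts or fewer. Among members with a median above 5 CPM, Chrm2 (39.6%), Adra2a (28.9%) and Htr1b (26.9%) came after Htr2c.

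The wider neuromodulator machinery was read from 6 lists holding 148 matched genes, of which 118 were tested. None had an edgeR adjusted p below 0.05; at an unadjusted p below 0.05 there were 4 higher and 3 lower in KO, and 1 higher and 3 lower without KO library 8. These are 3.39% and 2.54% of the 118 against backgrounds of 3.41% and 2.34%, and 0.847% and 2.54% against 2.18% and 1.93%. With the choroid plexus covariate over all libraries there were 8 higher and 2 lower (background 7.03% in both directions together). The median log2 fold change over the lists was 0.008. Of 14 tested receptors of the same families outside the 41, 0 were below 0.05. Among 34 G protein genes and their regulators, Rgs4, which shortens Gq and Gi signals, ran from 88.6 to 146 CPM in WT (median 131) and from 106 to 165 CPM in KO (median 149). The KO against WT log2 fold change was 0.19 (SE 0.081, edgeR unadjusted p = 0.0244, adjusted 0.781).

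Of 30 tested effector genes, Pde10a, a phosphodiesterase that breaks down cyclic nucleotides, ran from 61.1 to 86.6 CPM in WT (median 77.5) and from 50.6 to 87.5 CPM in KO (median 59.4). Its log2 fold change of -0.29 (SE 0.0799, edgeR unadjusted p = 0.00126, adjusted 0.781) was -0.26 without KO library 8 (SE 0.0781, adjusted 0.967). The dentate gyrus genes described beside Chrm3 moved the same way with and without that library, and their part in the Pde10a difference was not tested. The adenylyl cyclase Adcy8 (0.34, SE 0.142) and the channel subunit Kcnq3 (-0.28, SE 0.132) were below 0.05 with that library. They were not without it, at 0.21 (SE 0.108) and -0.19 (SE 0.0956). Among 8 tested ligand precursors, Pomc (2.47, SE 0.738) and Crh (0.53, SE 0.245) were higher with KO library 8, where they had 51.2 and 5.03 CPM. Without it the opioid peptide precursors Pdyn (-0.25, SE 0.114, edgeR unadjusted p = 0.0396, adjusted 0.967) and Penk (-0.30, SE 0.138, unadjusted p = 0.0423, adjusted 0.967) were lower in KO. The dentate gyrus genes described beside Chrm3 were lower in the same comparison, and their part was not tested. WT library 15, in which 11 striatal genes had a mean log2 CPM of 3.93 against at most 2.58 in the other libraries apart from KO library 8, held the highest WT value of Penk, 50.4 CPM. Of the 18 tested genes of transmitter synthesis, uptake and breakdown, 0 were below 0.05. Of 14 chaperones and partners only Mpdz was (-0.18, SE 0.082). Without KO library 8 Mpdz was at -0.14 (SE 0.0738, edgeR unadjusted p = 0.074, adjusted 0.967).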

How the data were processed

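Hippocampal total RNA was sequenced in 23 libraries. The deposited values are expected counts per gene, whole for most genes and fractional for others; the submitters' processing notes name STAR, bcl2fastq and the mm10 build, without roles. The counting program, annotation and use of strand are not given in the sources used here. Symbols and exon lengths were matched by Ensembl ID for 45143 of 45706 genes. The receptor genes, the marker and pathway lists and the libraries to leave out were chosen with earlier results of these data known.

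Expected counts deposited by the authors were rounded, and genotypes were compared by edgeR's robust quasi-likelihood test (version 4.0.16, R version 4.3.3) after filterByExpr and TMM scaling, with Benjamini-Hochberg adjustment over all tested genes; p below 0.05 is called. CPM use TMM-scaled library sizes. Alternatives were DESeq2 1.42.0, limma 3.58.1 (voom with quality weights), RLE size factors, other count filters, leaving out each library or those rich in choroid plexus RNA, and marker lists' mean log2 CPM as covariates. The steps were tested on simulated data. Values are given for receptors with an unadjusted p below 0.05 with or without KO library 8. Also given are the most abundant of each family per kilobase of exon. Those over 2-fold outside the range in KO library 8 or a choroid plexus rich library are included too. From pathway lists, up to 3 genes each are given by smallest unadjusted p below 0.05. Marker lists cover hippocampal fields, neighbouring regions and non-neuronal cells.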

Additional observations from a re-analysis of the deposited data

How the results depend on the processing

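No receptor gene was called in any of the 12 alternative fits or the 23 fits that left out 1 library (0 to 0 members). The number of members at an unadjusted p below 0.05, 7 over all libraries, ran from 2 (without KO library 8) to 9 (without KO library 22) when 1 library was left out, and the median log2 fold change from -0.054 to 0.038. With the choroid plexus rich libraries left out and KO library 8 kept the number was 8, all higher in KO. Adra1b and Htr2c were among these 8 and Chrm3 was not. The share over all genes was not taken for this fit or for the one without KO library 22. These numbers therefore have no background to be read against. With the choroid plexus covariate the number was 11, and 3 with KO library 8 also left out. With the thalamus and habenula covariate, chosen after seeing the data, it was 3, and 2 without KO library 8. Against 2 members without KO library 8, there were 5 when the choroid plexus rich libraries were left out too, and 0 with the neocortex covariate and KO library 8 left out, also chosen after seeing the data. The cause of these shifts was not tested. The 7 receptors with an unadjusted p below 0.05 kept their direction in each fit that tested them (Oprm1 was below the filter of 50 counts), while 9 of 40 members changed sign without KO library 8. Chrna4 had an unadjusted p below 0.05 in 11 of 12 alternatives (log2 fold change 0.22 to 0.65) and Htr5a in 11 (0.14 to 0.25). Counts limit Oprm1, Chrm5 and Galr1, with 4 or fewer in their lowest library. No paired analysis was possible because WT and KO libraries share no replicate number.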

Other observations

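Receptors of the same families outside the 41 genes were also high in some libraries. WT library 15 had the highest Drd1 (9.58 CPM) and Adora2a (4.2 CPM) of the 23 libraries, against WT medians of 3.33 and 0.983 CPM. KO library 8 had 9 CPM of Drd2 and 6.37 CPM of Hcrtr1, above the 0.712 to 6.28 and 0.594 to 2.07 CPM of the other libraries. Chrna3 and Chrnb3, nicotinic subunits, reached 5.56 and 5.24 CPM in KO libraries other than 8, against medians of 0.484 and 0.377 CPM over the other 22. Crhr2 was highest in WT library 17 (13.2 CPM) and KO library 12 (12.1 CPM), the libraries with the most choroid plexus RNA, against a median of 1.98 CPM over the 22 libraries other than KO library 8.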
